A study of Mus musculus with 2 samples.

Results

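The 10 genes described here belong to the Notch pathway and were read in the urinary bladder of the mouse: the receptors Notch1, Notch2, Notch3 and Notch4, the ligands Jag1, Jag2 and Dll4, and the target genes Hes1, Hey1 and Heyl. They were taken by symbol from the GENCODE M21 annotation of mm10, and are 10 of its 21938 protein-coding genes on the chromosomes used. The data are DNase-seq, in which DNase I cuts DNA that is not wrapped tightly in chromatin, from whole bladder tissue of 2 female B6CASTF1/J mice aged 36 days, supplied by The Jackson Laboratory, with no treatment or altered gene named in the labels. This strain is a hybrid of C57BL/6 and CAST parents, and all coordinates are those of the mm10 reference. The labels number the animals 5 and 6, here replicates 1 and 2, and give each its own biosample under a shared donor record of the strain, with 1 library each. The authors called 117773 peaks in replicate 1 and 102671 in replicate 2, and the read depth is not given in the sources used here. No other group, age, sex or tissue stands beside them, so all values are descriptions of these animals and no p-value could be computed.

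Notch receptors sit in the cell membrane and are activated by Jagged or Delta-like ligands on a neighbouring cell. The activated receptor is cut by ADAM proteases and then by gamma-secretase, and its inner part moves to the nucleus, where it joins the DNA-binding protein RBPJ and Mastermind coactivators. The best-known genes switched on in this way encode the repressors of the Hes and Hey families. Notch signalling is known from the urothelium, the epithelium that lines the bladder, from endothelium, where Notch4 and Dll4 are typical, and from mural cells of vessels, where Notch3 is typical.

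Each gene was read over its body and 20 kb on either side, and a gene counted as open where a called peak touched 250 bp on either side of any annotated transcript start. Of the 10 genes, 9 were open in both animals, beside 63.7% of all protein-coding genes, and Notch4 was open in replicate 1 only. Of their 52 distinct transcript starts, 19 (36.5%) had a peak in both animals, 8 in 1 animal and 25 in neither, beside 48.9% of all annotated starts with a peak in both. The domains held 141 open regions, of which 82 (58.2%) were found in both animals, beside 60.3% of all regions.

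The DNA just before 2 receptor starts shows the contrast in base composition that runs through these genes. The 150 bases before Notch2-201, whose start had the tallest peak of the 10 genes, are at chr3:98013388-98013537 of mm10, plus strand. Those before Notch4-201, whose start had a low peak in 1 animal, are at chr17:34564118-34564267, plus strand. Capitals mark CG dinucleotides, 24 in the former and 3 in the latter.
Notch2 upstream: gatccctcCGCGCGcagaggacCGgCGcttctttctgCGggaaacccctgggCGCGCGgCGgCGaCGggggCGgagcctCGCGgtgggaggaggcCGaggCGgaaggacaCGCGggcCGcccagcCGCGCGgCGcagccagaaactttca
Notch4 upstream: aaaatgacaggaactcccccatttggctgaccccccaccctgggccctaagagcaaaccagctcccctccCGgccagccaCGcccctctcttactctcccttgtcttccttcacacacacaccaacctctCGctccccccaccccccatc

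The letters GTGGGAA, the core of the sequence that RBPJ binds, are shown next because they stood at open sites of all 3 target genes. In each sequence the letters are in capitals, read as GTGGGAA or, on the other strand, as TTCCCAC, and the strand given is that of the gene. The 120 bases before Hes1-201 (chr16:30065220-30065339, plus strand) hold 1 match with its middle 78 bp before the start and a near match, TTCACAC, at 55 bp before it, facing each other. The Heyl stretch (chr4:123239611-123239677, plus strand) lies at an inner start, 6088 bp into the gene.
Hes1 upstream: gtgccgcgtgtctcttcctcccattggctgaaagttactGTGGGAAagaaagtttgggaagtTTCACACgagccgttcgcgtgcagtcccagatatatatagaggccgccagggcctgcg
Heyl inner start: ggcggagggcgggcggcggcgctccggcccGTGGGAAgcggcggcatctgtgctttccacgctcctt
A further 3 matches lay in shared regions of receptor and ligand genes and touched a footprint, a short protected stretch inside open DNA, in at least 1 animal. They were in intron 3 of Dll4 (chr2:119327215-119327412, plus strand), before Notch1-201 (chr2:26504173-26504239, minus strand) and past the end of Jag1 (chr2:137080741-137080807, minus strand).
Dll4 intron: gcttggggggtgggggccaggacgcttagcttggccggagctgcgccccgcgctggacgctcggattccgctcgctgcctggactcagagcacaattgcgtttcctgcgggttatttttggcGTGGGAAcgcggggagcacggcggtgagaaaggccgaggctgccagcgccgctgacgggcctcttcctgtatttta
Notch1 upstream: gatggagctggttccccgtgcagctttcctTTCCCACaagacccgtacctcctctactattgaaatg
Jag1 downstream: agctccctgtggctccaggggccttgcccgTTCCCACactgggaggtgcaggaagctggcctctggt

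Peak height is a signal value that the authors computed for each peak in their own units, and the height of a gene is that of its tallest peak at any of its starts, or 0 where there was none. On this scale the means of the 10 genes lay between percentiles 41.8 and 85.6 of all protein-coding genes. Notch2, Hes1, Jag1 and Hey1 formed the upper part, Notch1 and Jag2 the middle, and Notch3, Heyl, Notch4 and Dll4 the lower part. The median over the 10 genes was 3.30 in replicate 1 and 2.44 in replicate 2, above the medians of all protein-coding genes, 1.87 and 1.52, and below those of genes open in both animals, 5.09 and 3.64. Heights were lower in replicate 2 for each of the 10 genes, as they were for most sites in the genome. In whole tissue, fewer cells with an open site and a less open site in each cell cannot be told apart.

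**Figure D1:**
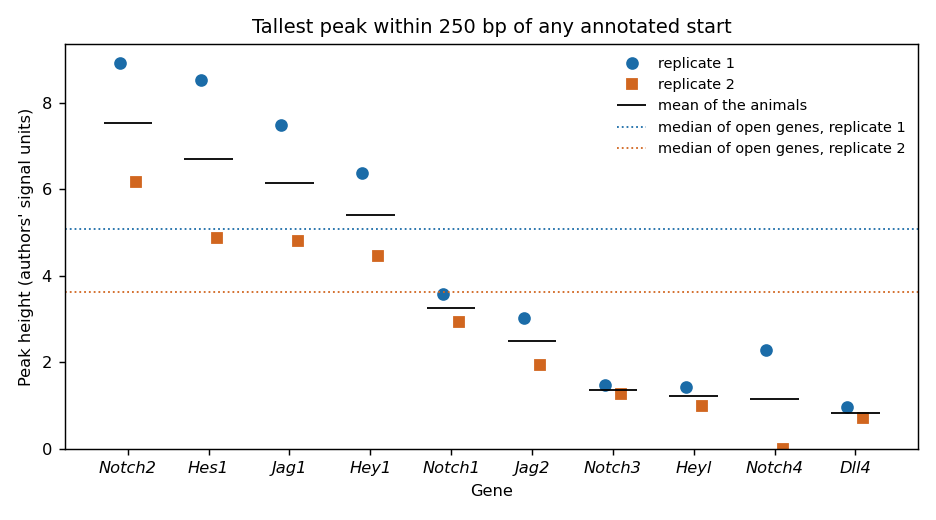
Height of the tallest peak within 250 bp of any annotated start (vertical axis, authors' signal units) for each gene (horizontal axis), with a circle for replicate 1, a square for replicate 2 and a bar for their mean. Dotted lines are the medians of genes open in both animals, 5.09 and 3.64; Notch2, Hes1, Jag1 and Hey1 lie above the line of the same animal and the other 6 genes below it.

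Among the receptors, Notch2 was the most open. Its start had a height of 8.92 in replicate 1 and 6.17 in replicate 2 (mean 7.55 ± 1.94, SD, n = 2), more than 85.6% of protein-coding genes. Notch1 followed with 3.58 and 2.93 (3.25 ± 0.46), and Notch3 had 1.47 and 1.27 (1.37 ± 0.14), at percentiles 60.8 and 47.1. The values of the animals did not overlap between Notch2 and Notch1 or between Notch1 and Notch3, and the order was the same in both animals. Notch4 had a height of 2.29 in replicate 1 and no peak in replicate 2.

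The receptors differed in which of their starts were open. Notch2 (chr3:98013527-98150361, plus strand) has 2 annotated starts 11 bp apart, and both lay at the same peak. Notch1 (chr2:26457903-26516663, minus strand) has 11 starts. The start of Notch1-201, which encodes the protein, and that of Notch1-205, 2 bp from it, were open in both animals, although the peak of replicate 2 did not cover them. With a peak required to cover the start, the mean of Notch1 was 1.79 and its call in replicate 2 was lost. Another 8 starts of short noncoding transcripts 33324 to 41075 bp downstream were closed. The coding start of Notch1-206, 12841 bp upstream, had a height of 1.14 in replicate 1 and no peak in replicate 2, where no base within 250 bp reached a false discovery rate of 0.05. Notch3 (chr17:32120820-32166852, minus strand) was open at Notch3-201 and closed at its 2 inner starts, of which Notch3-202 is coding.

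Notch4 (chr17:34564268-34588503, plus strand) was the 1 gene with no start open in both animals. Its coding start, Notch4-201, had a height of 0.663 in replicate 1 and no peak in replicate 2. The taller peak of replicate 1, 2.29, lay at the noncoding starts Notch4-202 and Notch4-210, 22677 and 22773 bp into the gene, in intron 28 of Notch4-201, which has 30 exons. In replicate 2 no peak was called there, although 381 and 477 of the 501 bases around these starts had a false discovery rate up to 0.05. The tallest peak inside Notch4 was close by, on exon 30 (chr17:34587461-34587720), with 8.73 in replicate 1 and 7.14 in replicate 2. With a window of 1000 bp on either side of a start this peak counts, and Notch4 then has a mean height of 7.94 in place of 1.14.

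Among the ligands, Jag1 stood above Jag2 and Dll4. Jag1 (chr2:137081456-137116644, minus strand) had a start height of 7.48 and 4.80 (6.14 ± 1.90, SD, n = 2), at percentile 78.5. Jag2 (chr12:112907819-112929776, minus strand) had 3.02 and 1.95 (2.48 ± 0.76). Dll4 (chr2:119325784-119335962, plus strand) had 0.971 and 0.705 (0.838 ± 0.188), the lowest mean of the 10 genes. The values of these 3 ligands did not overlap. The start base of Jag1-201 itself lay between called regions, so that with a peak required to cover the start Jag1 counts as closed. By the same rule Dll4 was open in replicate 2 only, with a mean of 0.352.

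The 10 starts of Jag2 divided by position. Jag2-201, the upstream coding start, had 2.07 and 1.20, and the noncoding Jag2-208, 1328 bp inside the gene in intron 2, was taller in both animals, with 3.02 and 1.95. The other 8 starts, 12457 to 19408 bp inside the gene, were closed, among them the coding start of Jag2-209. Dll4 was open at Dll4-201 in both animals and closed at Dll4-202, and no base around Dll4-201 reached a false discovery rate of 0.001 in either animal. The region at Dll4-201 also touched a start of another gene, Gm14207. Dll4 had no start peak in the smaller of the authors' lists.

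Each of the 3 target genes had at least 1 start open in both animals. Hes1 had a height of 8.54 in replicate 1 and 4.88 in replicate 2 (6.71 ± 2.59, SD, n = 2), at percentile 81.6. Hey1 had 6.37 and 4.46 (5.41 ± 1.35), at percentile 74.4. Heyl, the least open of the 3, had 1.44 and 0.994 (1.22 ± 0.313), at percentile 45.7. The animals' values overlapped between Hes1 and Hey1, and those of Heyl lay below both.

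All 4 starts of Hes1 (chr16:30064384-30067796, plus strand) were open in both animals. Besides Hes1-201, the noncoding Hes1-202, 956 bp upstream, had 5.82 and 3.53, and the inner starts Hes1-203 and Hes1-204 shared a low peak of 1.29 and 1.37. Of the 4 starts of Hey1 (chr3:8663359-8667256, minus strand), 3 touched the same tall peak and Hey1-202, 631 bp inside the gene, had a peak of 0.789 in replicate 1 only. In replicate 2, 417 of 501 bases there still had a false discovery rate up to 0.05. Heyl (chr4:123233556-123249875, plus strand) was taller at the inner noncoding start Heyl-202, 6201 bp downstream, than at the coding Heyl-201, where the heights were 1.07 and 0.679.

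In the order of mean heights, most neighbours had ranges over the 2 animals that overlapped. These are ranges of heights not scaled between animals, and replicate 2 was the lower for each gene. The ranges of the animals overlapped between Notch2 and Hes1, Hes1 and Jag1, Jag1 and Hey1, Notch1 and Jag2, and along the run from Notch3 through Heyl and Notch4 to Dll4. They were apart only between Hey1 and Notch1 and between Jag2 and Notch3. The ranks from Notch2 down to Jag2 were nevertheless the same in both animals, and Notch3 stood below Jag2 and above Heyl in each.

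Most of the remaining machinery of the pathway was open too. Of 42 other pathway genes, 40 had a start peak in both animals, beside 63.7% of all protein-coding genes. Their median heights were 6.43 in replicate 1 and 4.01 in replicate 2, beside 5.09 and 3.64 over all genes open in both animals. The 9 proteases, ADAM10, ADAM17 and the parts of gamma-secretase, were all open, with medians of 10.8 and 6.83, and the 7 genes of the nuclear complex and its cofactors had 6.75 and 4.31. The tallest starts of the list belonged to Rbpj with 14.9 and 8.68 (11.8 ± 4.37, SD, n = 2), to Adam10 with 14.3 and 7.02 (10.7 ± 5.14) and to Numb, an inhibitor of Notch, with 13.5 and 7.76 (10.6 ± 4.03). The closed genes were the targets Hes5 and Hes7, each without a peak in either animal.

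The other ligands and ligand-like genes, Dll1, Dll3, Dlk1, Dlk2 and Dner, were all open, at low heights with medians of 1.18 and 1.17. The 5 glycosyltransferases, which modify the receptors, had medians of 4.02 and 3.26, and the 11 genes of turnover and trafficking 5.24 and 3.49. Over the 10 genes themselves the medians by role were 2.93 and 2.10 for receptors, 3.02 and 1.95 for ligands and 6.37 and 4.46 for targets. Genes with more annotated starts have more chances of a tall peak. The 10 genes had a median of 3.5 starts and all protein-coding genes a median of 3.

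Marker genes of the tissue were read at their starts in the same way, by which 63.7% of all protein-coding genes were open in both animals. Markers of urothelium were open in both animals for 9 of 10 (Trp63 was closed), of endothelium for 5 of 8 (Pecam1 and Sox18 in replicate 1 only, Erg closed), of mural cells for 6 of 6, of smooth muscle for 5 of 6 and of fibroblasts for 4 of 5. Markers of liver were open in both animals for 0 of 4, with low peaks of 0.355 for Ttr and 0.284 for Apob in replicate 1 only, while 3 of 4 of neurons had low peaks in both. Of immune cells, the macrophage marker Adgre1 had a low peak of 0.561 and 0.459. Summed heights were lower in replicate 2 in every list, with 26.8 and 13.8 for urothelium, 7.43 and 3.24 for endothelium, 10.05 and 7.30 for mural cells, 6.73 and 5.27 for smooth muscle, 8.16 and 6.85 for fibroblasts, and 44.1 and 28.1 for the 10 Notch pathway genes. Ptprc, Cd3e, Csf1r, Alb and Apoa2 had no peak in either animal. The part that cell composition has in the heights of the Notch genes was not tested.

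Open and closed starts of the 10 genes differed in CpG content, given as the observed over expected ratio in 250 bp on either side of the start. The 19 starts open in both animals had ratios from 0.607 to 1.01 with a median of 0.785. The 25 closed starts ranged from 0.0678 to 0.505 with a median of 0.294, so the ranges did not overlap. Starts that lie close together, such as those of Notch1 2 bp apart, read nearly the same bases and are not independent. Notch1 and Jag2 each gave 8 of the closed starts, all inside the gene. The 8 starts open in 1 animal ran from 0.0982 to 0.743. Over all protein-coding genes the medians were close to these, 0.787 for starts open in both animals and 0.233 for closed starts. Median GC content was 69.3% at the open and 56.7% at the closed starts of the Notch genes, compared with 63.3% and 47.7% over all genes.

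**Figure D2:**
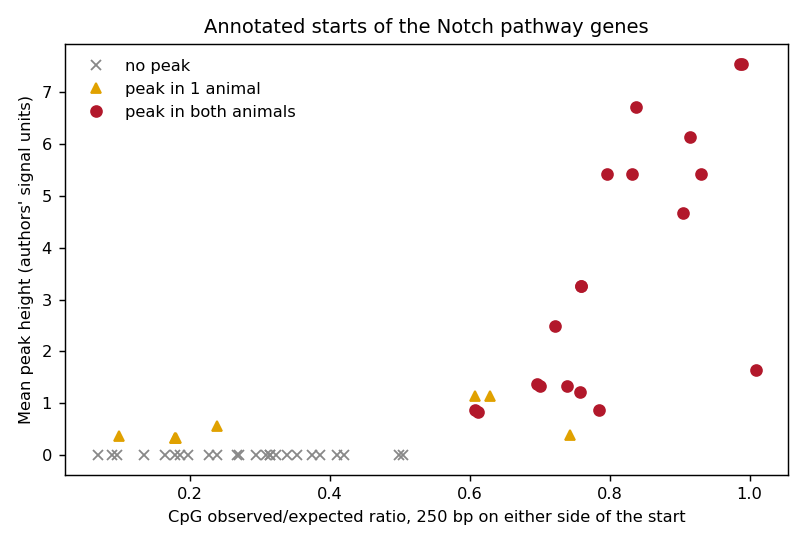
CpG observed over expected ratio in 250 bp on either side of each of the 52 annotated starts (horizontal axis) against the mean peak height of the animals (vertical axis, authors' signal units), by whether a peak was found in both animals, in 1 or in neither. Starts with a peak in both animals lie at ratios of 0.607 and above and starts without a peak at 0.505 and below.

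Closed starts were closed by the base-level list as well. None of the 25 closed starts had a base with a false discovery rate up to 0.05 within 250 bp in either animal, and over all protein-coding genes this held for 95.9% of closed starts. By a stricter reading, which asked each animal for a base at 0.001 or below, 19 of the 52 starts were open (36.5%), beside 47.3% of all starts. These were not the same 19, since 3 starts with a peak in both animals had no such base in both, and 3 with a peak in fewer animals had one. Of coding transcripts, 9 of 13 starts were open in both animals, and of noncoding transcripts 10 of 39. The same shares over all protein-coding genes were not computed, so this contrast cannot be read as particular to these genes. Starts open in both animals numbered 8 where the peak had to cover the start base.

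Beyond the starts, open regions were numerous around these genes. Regions found in both animals and away from any annotated start, counted over gene body and flanks, had a median of 0.754 per 10 kb in the 10 genes and 0.283 in all protein-coding genes. All 10 genes were above the latter. Jag1 had 1.46 per 10 kb, more than 98.4% of genes, Hes1 had 1.38, and Notch3 and Notch1 had 0.930 and 0.911. Notch4 had 0.311 and Notch2, the longest of the genes, 0.396, at percentiles 52.1 and 59.7. Flanks of fixed length weigh more in short genes, which makes densities of Hes1 and Notch2 less comparable.

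**Figure D3:**
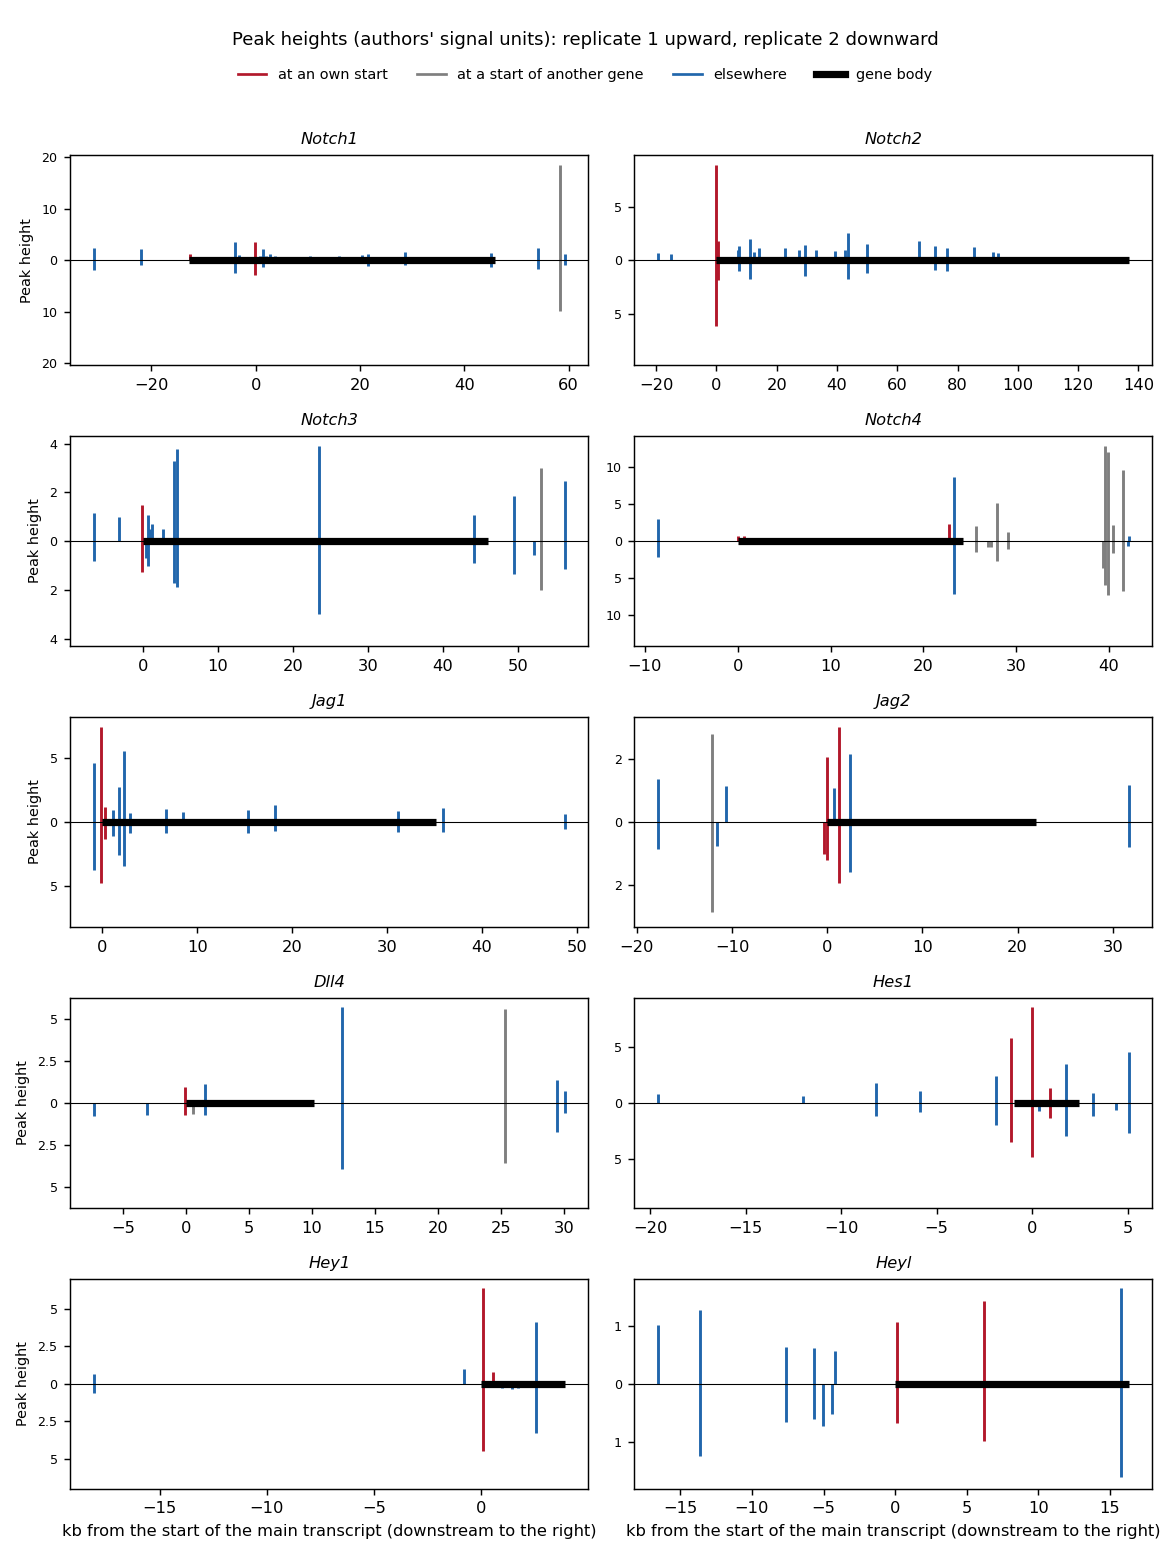
Peak heights (vertical axis, authors' signal units) along each gene, with replicate 1 upward and replicate 2 downward, against distance in kb from the start of the lowest-numbered coding transcript, downstream to the right; the black bar is the gene body. Red lines are regions at a start of the gene itself, grey lines regions at a start of another gene and blue lines all other regions; the grey lines reach 18.5 in the Notch1 domain and 12.9 in the Notch4 domain.

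In both animals the tallest region of the Notch1 domain and of the Notch4 domain lay at a start of a neighbour. The tallest near Notch1 (chr2:26445181-26446040, heights 18.5 and 9.88) lay at the starts of Sec16a and 0610009E02Rik. Of the 9 shared regions of the Notch4 domain, 7 lay at starts of other genes, with 12.1 and 7.30 at a start of Agpat1, 12.9 and 5.98 at a start of Rnf5 and 9.67 and 6.72 at another start of Agpat1. The region on exon 30 of Notch4, with 8.73 and 7.14, was below all 3 of these in replicate 1 and below the first alone in replicate 2. Near Jag2 the region with the highest mean, with 2.77 and 2.84, was at a start of Nudt14, although in replicate 1 that at Jag2-208 was taller, and near Dll4 a region of 5.58 and 3.58 was at the start of Chac1. Over all 10 genes, 11 of the 82 shared regions were of this kind and 15 were at the genes' own starts.

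Apart from its own start and those of its neighbours, Notch1 had its tallest region 3.87 kb upstream of Notch1-201 (chr2:26507561-26507800), with 3.43 in replicate 1 and 2.55 in replicate 2, close to the height of the start. It lies inside the annotated gene because Notch1-206 begins further upstream. In Notch2 the tallest inner regions were in intron 2 (chr3:98056961-98057180), with 2.57 and 1.81, and in intron 1 (chr3:98024421-98024798), with 1.97 and 1.76. Notch2 had 23 regions in all, of which 14 were called in replicate 1 alone and none in replicate 2 alone.

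In Notch3 the start was not the most open site. A region on coding exon 24 of 33 (chr17:32143261-32143480) had 3.92 and 3.01, and a pair of adjoining regions in intron 2 (chr17:32162181-32162540 and chr17:32162581-32162820) had 3.78 and 1.87, and 3.30 and 1.72. All 3 were taller than the start in both animals. Dll4 showed the same order, with 5.68 and 3.94 at a region 12.4 kb past its start and beyond its end (chr2:119337961-119338260). Heyl was the tallest on its last exon, exon 5 (chr4:123249161-123249460), with 1.65 and 1.61, and had 1.28 and 1.24 at a region 13.6 kb upstream (chr4:123219801-123220020).

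By a shared 1 bp, Jag1 had the most complete overlap between animals, with 13 of 14 regions found in both. With an overlap of 50% of both peaks required, Jag1 had 8 shared regions, and in the smaller peak list 6. Around its start stood a group of tall regions, with 5.55 and 3.47 in intron 2 (chr2:137114221-137114600), 4.62 and 3.80 upstream (chr2:137117441-137117660) and 2.71 and 2.61 also in intron 2 (chr2:137114681-137114960). Hes1 likewise had a tall region past its end (chr16:30070181-30070720), with 4.58 and 2.73, and another on coding exon 4 (chr16:30066841-30067360), with 3.47 and 2.96. Hey1 had a region on coding exon 5 (chr3:8664601-8664800) with 4.13 and 3.27 and 3 shared regions in all, and a region 0.82 kb upstream (chr3:8667981-8668180) had 0.955 in replicate 1 alone. Jag2 had 2.16 and 1.58 in intron 2 (chr12:112927301-112927560), about as tall as its coding start. Over the 10 genes, shared regions that touch coding exons outside starts had a median height of 3.34 (6 regions), beside 1.27 in introns (23 regions) and 1.36 upstream (12 regions). The 6 ran from 0.995 in Notch3 to 7.94 in Notch4. Medians of these classes over all genes were not computed.

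The RBPJ letters GTGGGAA were searched on both strands in 300 bp around the middle of each shared region. They were found in 17 of the 82 regions of the Notch pathway genes (20.7%), and in 7.21% of all shared regions. The 2 such regions of the Notch4 domain lay at starts of other genes, Gpsm3 and Pbx2. Away from starts the shares were 17.9% of 56 regions and 7.60% of all such regions. With only 75 bp on either side they were 11.0% (9 regions) and 3.54%, with the shorter TGGGAA 34.1% (28 regions) and 28.0%, and in the smaller peak list 13.5% (7 of 52 regions) and 6.94%. A match is only a description of letters and does not show that RBPJ is bound.

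Among regions found in both animals, the matches at starts were divided by role. Of the 6 shared start regions of the targets Hes1, Hey1 and Heyl, 5 held GTGGGAA, and of the 4 of receptors and the 5 of ligands none did. For Hey1 the match counted lies 238 bp past the start. Over the 15 start regions the share was 33.3%, beside 6.01% of all start regions of protein-coding genes. The receptor count leaves out the match before Notch1-201 printed above, since 384 bp before the start it falls outside the 300 bp window of that region. It also leaves out receptor start regions found in replicate 1 only. Of these, the regions at Notch1-206, at Notch4-209 and at Notch4-202 with Notch4-210 held GTGGGAA, and that at Notch4-201 did not. The division by role therefore holds for shared regions alone.

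The match and the near match before Hes1-201 face each other. Pairs on opposite strands 15 to 19 bp apart were searched with 3 patterns. With GTGGGAA they were in 0 of the 82 regions and in 1 of all 80169 shared regions, and with TGGGAA in 0 and in 29. With GTGNGAA they were in 1 of the 82, that of Hes1, and in 7 of all. The pattern with N was chosen after the Hes1 sequence had been seen, so its presence there is a description of that sequence. A pair of opposed RBPJ sites is a known feature of the Hes1 promoter.

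**Figure D4:**
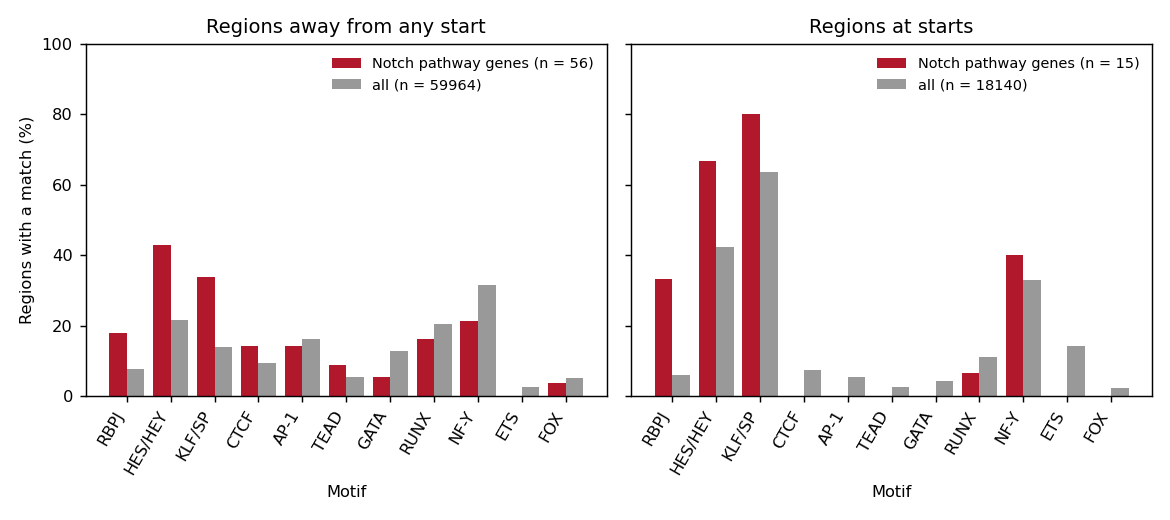
Share of shared open regions with a motif match in 300 bp (vertical axis, %) for each motif (horizontal axis), in regions of the Notch pathway genes (red) and in all regions (grey), away from any start (left) and at starts of protein-coding genes (right). GTGGGAA (RBPJ) is at 17.9% beside 7.60% on the left and at 33.3% beside 6.01% on the right, where the red bars stand for 15 regions.

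Among other motifs, letters bound by Hes and Hey repressors (CACGNG) were in 45.1% of the 82 regions and 26.5% of all, and those bound by KLF and SP factors (GGGCGG) in 51.2% and 25.7%. Away from starts the shares were 42.9% beside 21.6% and 33.9% beside 13.9%. GGGCGG and CACGNG hold CG, and the GC content of the regions was not matched in these shares or in those of GTGGGAA. Letters of AP-1 (TGANTCA) were in 9.76% beside 13.7%, of GATA factors (AGATAA) in 3.66% beside 10.8% and of ETS factors (CCGGAAG) in 1.22% beside 5.28%. Those of TEAD (ACATTCC) were in 6.10% beside 4.81%, of FOX (TGTTTAC) in 2.44% beside 4.40%, of RUNX (TGTGGT) in 12.2% beside 18.1% and of NF-Y (CCAAT) in 26.8% beside 31.9%. The longer motif of SRF was in 1.22% beside 1.44%, and that of NFI in 0 regions beside 0.136% of all.

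Footprints numbered 369 in replicate 1 and 353 in replicate 2 within the domains. Of these, 184 (49.9%) and 192 (54.4%) touched a footprint of the other animal, beside 44.8% and 52.2% of all footprints. Counts were unequal between genes and animals, with 63 and 41 around Notch1, 43 and 61 around Hes1, 15 and 30 around Dll4 and 57 and 59 around Notch4. Footprints carry the same threshold of 0.01 in the authors' lists and could not be ranked.

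Few RBPJ matches lay in footprints. Of 17 matches in the 300 bp windows of the shared regions, 2 touched a footprint in both animals (11.8%), beside 7.77% of all such matches. They were the match in intron 3 of Dll4, 1556 bp past the start, in a low region of 1.12 and 0.713, and a match 238 bp past the start of Hey1-201 (chr3:8667015-8667021), in the untranslated part of exon 1. The match at 78 bp before Hes1-201 touched none. The match 384 bp before Notch1-201 lies outside the window of its region and is not among the 17.

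Of the 6 motifs set against footprints, that of CTCF, a protein that organises chromatin loops, touched them most often. Its motif, searched on both strands, was in 8 of the 82 regions (9.76%), beside 8.78% of all, and 7 of these 8 matches touched a footprint in both animals (87.5%), beside 70.4% of all matches. They are shown for 4 genes, with the match in capitals and on the strand of the match. They lie in intron 2 of Notch3 (chr17:32162209-32162248, plus strand), 8592 bp before Notch4-201 (chr17:34555656-34555695, minus strand), 921 bp before Jag1-201 (chr2:137117545-137117584, plus strand) and on coding exon 5 of Hey1 (chr3:8664678-8664717, plus strand).
Notch3 CTCF: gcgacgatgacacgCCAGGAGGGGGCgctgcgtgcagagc
Notch4 CTCF: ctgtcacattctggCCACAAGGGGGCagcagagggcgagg
Jag1 CTCF: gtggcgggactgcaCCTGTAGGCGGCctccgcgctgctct
Hey1 CTCF: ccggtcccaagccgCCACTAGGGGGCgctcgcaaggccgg
The regions around them are among the taller ones named above for Notch3, Jag1 and Hey1, and the region before Notch4 had 2.98 and 2.22.

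The difference between animals at these genes was near that of all regions. Over all shared regions the median log2 difference, replicate 2 minus replicate 1, was -0.37 with an SD of 0.42, and over the 82 regions it was -0.42. After centring on all regions, the 82 had a median of -0.04 with quartiles of -0.27 and 0.21. The sign of this median depends on the scaling, since it was 0.07 with heights matched by quantiles and 0.15 with heights divided by their sum. Past 1.5-fold lay 11 of the 82 regions (13.4%), beside 15.7% of all shared regions, with 5 higher in replicate 2 (8.49% of all regions) and 6 lower (7.17%).

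**Figure D5:**
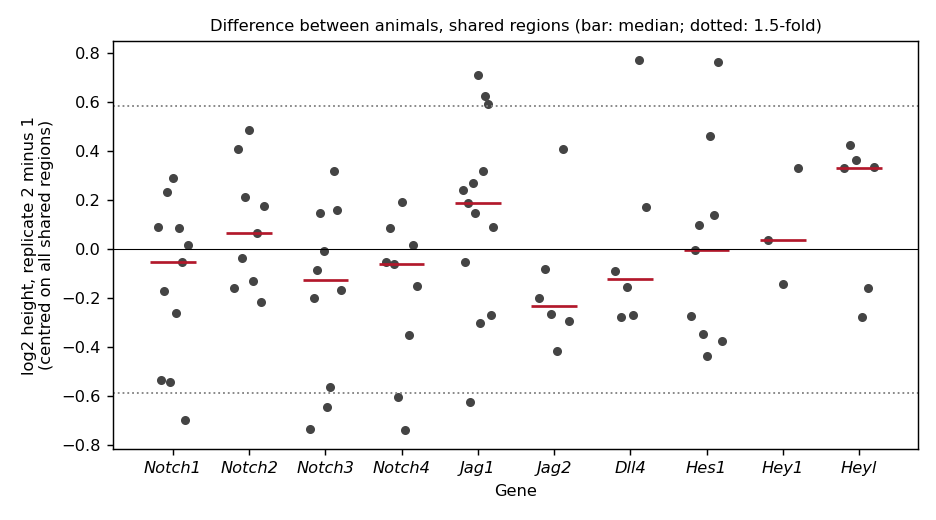
Log2 height of replicate 2 minus replicate 1 for each shared region (vertical axis, centred on the median of all shared regions) by gene (horizontal axis), with a bar for the median and dotted lines at 1.5-fold. Regions past the lines are 4 for Jag1, 2 each for Notch3 and Notch4, 1 each for Notch1, Dll4 and Hes1, and 0 for the other 4 genes.

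The regions higher in replicate 2 were low ones near Jag1, Hes1 and Dll4. They included 0.679 and 0.858 in intron 2 of Jag1 (chr2:137113485-137114120, centred difference 0.71), 0.876 and 1.15 past the end of Hes1 (chr16:30068041-30069036, 0.76) and 1.33 and 1.76 past the end of Dll4 (chr2:119355121-119355420, 0.77). In the Hes1 region the tallest peaks were chr16:30068846-30068974 in replicate 1 and chr16:30068041-30068400 in replicate 2. These do not overlap, so the difference there compares separate sites of a merged region. Widths of the regions higher in replicate 2 ran from 300 to 996 bp, and those of the 6 lower regions from 210 to 360 bp. Among the lower ones were 2.47 and 1.15 past the end of Notch3 (chr17:32110501-32110780, -0.73), 2.14 and 1.02 upstream of Notch1 (chr2:26525701-26525985, -0.70) and the Rnf5 start near Notch4 (-0.74). The part that region width has in these differences was not tested. In the genes with no region past 1.5-fold, the largest centred differences were 0.49 in intron 1 of Notch2 (chr3:98042921-98043161, heights 1.40 and 1.51), -0.41 at the start of Jag2-201, 0.33 at a region 18.1 kb upstream of Hey1 (chr3:8685221-8685548, 0.647 and 0.629) and 0.42 at a region 7.59 kb upstream of Heyl (chr4:123225835-123226017, 0.632 and 0.654). By gene, median centred differences ran from -0.23 in Jag2 to 0.33 in Heyl.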

How the data were processed

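DNase-seq was read in the bladders of 2 mice, 1 library each. For each animal the authors deposited 2 lists of peaks, whose height column is a signal in their own scale, a list of footprints, whose deposited p-value type column is a constant threshold of 0.01, and a base-level list of false discovery rates, a p-value type column up to 0.05. All were made for each animal separately on mm10, per the deposited descriptions. For the aligner, the caller, its threshold and the scaling, no name or value is given in the sources used here. The list with more peaks was used and the smaller served as an alternative.

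The domain of each gene was its GENCODE M21 body with 20 kb on either side. Peaks of the animals that shared at least 1 bp were merged into regions, and the height of a region in an animal was that of its tallest peak. Regions were called shared where both animals had a peak. Differences were log2 ratios minus the median of all shared regions. Sequence came from the RefSeq release of GRCm38, whose chromosomes are those of mm10. Motif letters were searched on both strands. Python 3.11.15, pandas 2.3.3, numpy 2.4.6, pysam 0.24.0 and matplotlib 3.10.9 were used, and the overlap, merging and motif steps were tested on simulated data.

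All 10 genes are named, with the peaks at their starts, the 3 tallest regions of each domain and the shared region with the largest difference. Of the list of 42 other pathway genes, the 3 tallest and those closed in both animals are named. The genes, lists and motifs were chosen with earlier results of these data known. With 1 group of 2 animals, values are given for each animal with mean and SD and without a test. Of the immune markers 1, and 1 stretch of sequence near a target gene, are not reported here.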

Additional observations from a re-analysis of the deposited data

How the results depend on the processing

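No paired analysis was possible because the animals form 1 group. With a peak required to cover the start base, 8 starts were open in both animals in place of 19, and with coding transcripts only 9, since fewer starts are then read. The median start height of the 10 genes, 2.87 ± 0.61 (SD, n = 2), was 1.89 where the peak had to cover the start and 4.33 with 1000 bp on either side. Shared regions numbered 136 with flanks of 50 kb and 52 in the smaller peak list, in place of 82. Regions with an RBPJ match numbered 28 with TGGGAA, 9 with 75 bp on either side and 7 in the smaller list, in place of 17. By animal, open genes ranged from 9 to 10, open starts from 19 to 27 and the median height from 2.44 to 3.30, and 40 other pathway genes were open in either animal alone. In all, 34 alternative counts and medians, those by animal included, moved by no more than 1.5 times or the spread set as the limit. For start heights the limit was the SD of the 2 animals. The height of 1 animal alone always lies within it, so these cases say nothing about stability. For the height difference between animals the limit was the SD over all shared regions, 0.42, and its changes of sign lay within that. Among the 34, at the limit itself, were 6 open genes in place of 9 where the peak had to cover the start. The share of all protein-coding genes by that rule was not computed. Of the values for single genes, 95 stayed within these limits, all heights of 1 animal alone included, and 25 did not. The read depth behind a height is not known, so no counting error can be given for low peaks such as those of Notch4 and Dll4.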
